A study of Mus musculus with 6 samples.

Results

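Glutathione transferases and the antioxidant genes around the transcription factor NRF2 were followed in mouse primary chondrocytes, the cells that build cartilage, with and without a Cre recombinase acting on Nf2. The gene set was a list of 40 symbols, namely 22 glutathione transferases, 5 genes of glutathione supply, 4 other NRF2 targets, 7 enzymes that remove peroxide or superoxide, and the regulators Nfe2l2 and Keap1. FPKM (fragments set against the length of the transcript and the size of the library) were summed over the transcripts of each symbol. Of the 40 symbols, 39 were found among the 29510 gene symbols measured, with 149 transcripts, and Gstm3 was not analysed here. The cKO group (3 libraries) carried floxed Nf2 alleles and Prx1-Cre, and the control group (3 libraries) carried the floxed alleles without Cre. Prx1-Cre is driven by a limb enhancer and acts in limb bud mesenchyme, so deletion depends on each cell's descent from that tissue. All cells were cultured without induced differentiation, and the sources used here give neither the ages of the animals nor whether animals were pooled. Nf2 encodes merlin, a tumour suppressor at the cell membrane, and the study's title concerns its role in the growth of limb and thumb and in Hedgehog signalling at the primary cilium.

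Glutathione is a small thiol that cells use to neutralise peroxides and reactive compounds, and glutathione transferases attach it to such compounds. NRF2, the product of Nfe2l2, switches on many of these genes by binding a DNA motif called the antioxidant response element together with small MAF proteins. KEAP1 holds NRF2 back by marking it for degradation, so NRF2 is controlled largely at the protein level and its own RNA need not change when it acts. Cartilage has no blood vessels and little oxygen, and its matrix is known to hold extracellular superoxide dismutase, the product of Sod3.

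Between 12441 and 12522 genes reached 1 FPKM in cKO libraries, against 12588 to 12697 in control libraries. Summed over its transcripts Nf2 was at 17.5, 15.6 and 18.1 FPKM in cKO 1 to 3, against 16.7, 16.6 and 14.1 FPKM in control 1 to 3, and a sum over transcripts does not check the deletion of an exon. Col2a1, the main cartilage collagen, was present in every library, at 1672 to 2043 FPKM in cKO and 3323 to 4122 FPKM in control. Of 16 chondrocyte markers, 15 fell and 0 rose, and their summed level was 2461 to 3041 FPKM in cKO and 5674 to 6890 FPKM in control. Genes listed as markers of other cells moved as well. Of 5 tested adipocyte markers 3 rose (summed level 67.8 to 103 FPKM in cKO and 56.3 to 62.1 FPKM in control), while Adipoq was listed at 0 in every cKO library. Of 5 tested macrophage and osteoclast markers 1 rose and 2 fell (58.0 to 78.7 FPKM in cKO and 87.8 to 118 FPKM in control). Of 10 tested fibroblast markers 4 fell (1400 to 2154 FPKM in cKO and 1931 to 2156 FPKM in control). Of 3 tested epithelial markers 1 rose and 1 fell (28.1 to 51.0 FPKM in cKO and 12.7 to 19.4 FPKM in control), with the highest level in cKO 2. Krt19 was the marker that rose and held most of the sum in cKO. It was at 21.4, 44.0 and 22.0 FPKM in cKO 1 to 3, against 8.65, 5.79 and 10.2 FPKM in control 1 to 3. Of 3 tested skeletal muscle markers 2 rose (13.8 to 14.9 FPKM in cKO and 8.32 to 12.2 FPKM in control). S100b, the only gene tested from the glial and neuronal list, fell, and 1 gene does not show that such cells were present. Endothelial and erythroid markers lay under the filter, at summed levels of 0.375 to 0.819 and 0.0192 to 0.0658 FPKM in cKO and 0.217 to 0.414 and 0.523 to 2.55 FPKM in control. The part of these differences in the antioxidant results was not tested, and in bulk RNA a change in the share of a cell type and a change in RNA per cell cannot be told apart. Xist was at 51.4, 41.6 and 0.0288 FPKM in cKO 1 to 3 and at 51.1, 0.525 and 53.9 FPKM in control 1 to 3. The labels do not say whether replicates are separate animals or cultures, so every p-value here reflects only how far these libraries spread, and that spread may be technical.

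The antioxidant genes did not move as a block. Of the 36 that reached a mean of 0.5 FPKM over the 6 libraries, 6 rose in cKO (Gsta1, Gsta2, Mgst3, Gss, Gpx1 and Gpx4), 2 fell (Gstm1 and Sod3) and 28 did not pass. The test was limma on log2(FPKM + 0.5) with Benjamini-Hochberg adjustment over all 14080 genes tested and a threshold of 0.05, and it called 12.2% of all genes, 7.6% as higher and 4.57% as lower. The share of antioxidant genes called was 22.2%. This set was chosen with earlier results of these data known, so the share is a description and not a test of the set. The groups did not overlap for 17 of the 36, 12 higher and 5 lower in cKO, where 35.1% of all genes had separate groups (22.8% higher and 12.3% lower). Their log2 changes lay between -1.02 and 1.70 with a median of 0.10, beside 0.05 for all genes. Median-of-ratios scaling divides each library by the median, over genes, of its ratio to the geometric mean of the 6 libraries. With it 3 rose (Gsta1, Mgst3 and Gpx4) and 3 fell (Gstm1, Sod2 and Sod3). That scaling also moved the split of all calls, of which 62.5% were higher without it and 45.5% with it (47.5% with quantile normalization). Leaving out 1 library, 3 rose without cKO 1 or cKO 2, 1 without control 1, 2 without control 2 and 4 without cKO 3 or control 3. The number that fell was 3 without cKO 2 and 0 without any other library. These counts include genes that did not pass with all 6 libraries. Gstm2 rose and Nqo1 fell without cKO 2, Gstt2 rose without control 2 and Gsta4 rose without control 3. Gsta1 was the only antioxidant gene that passed in all 16 alternative settings. Gsta3, Gstm6 and Gstm7 lay under the filter, with no library above 0.506 FPKM.

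**Figure D1:**
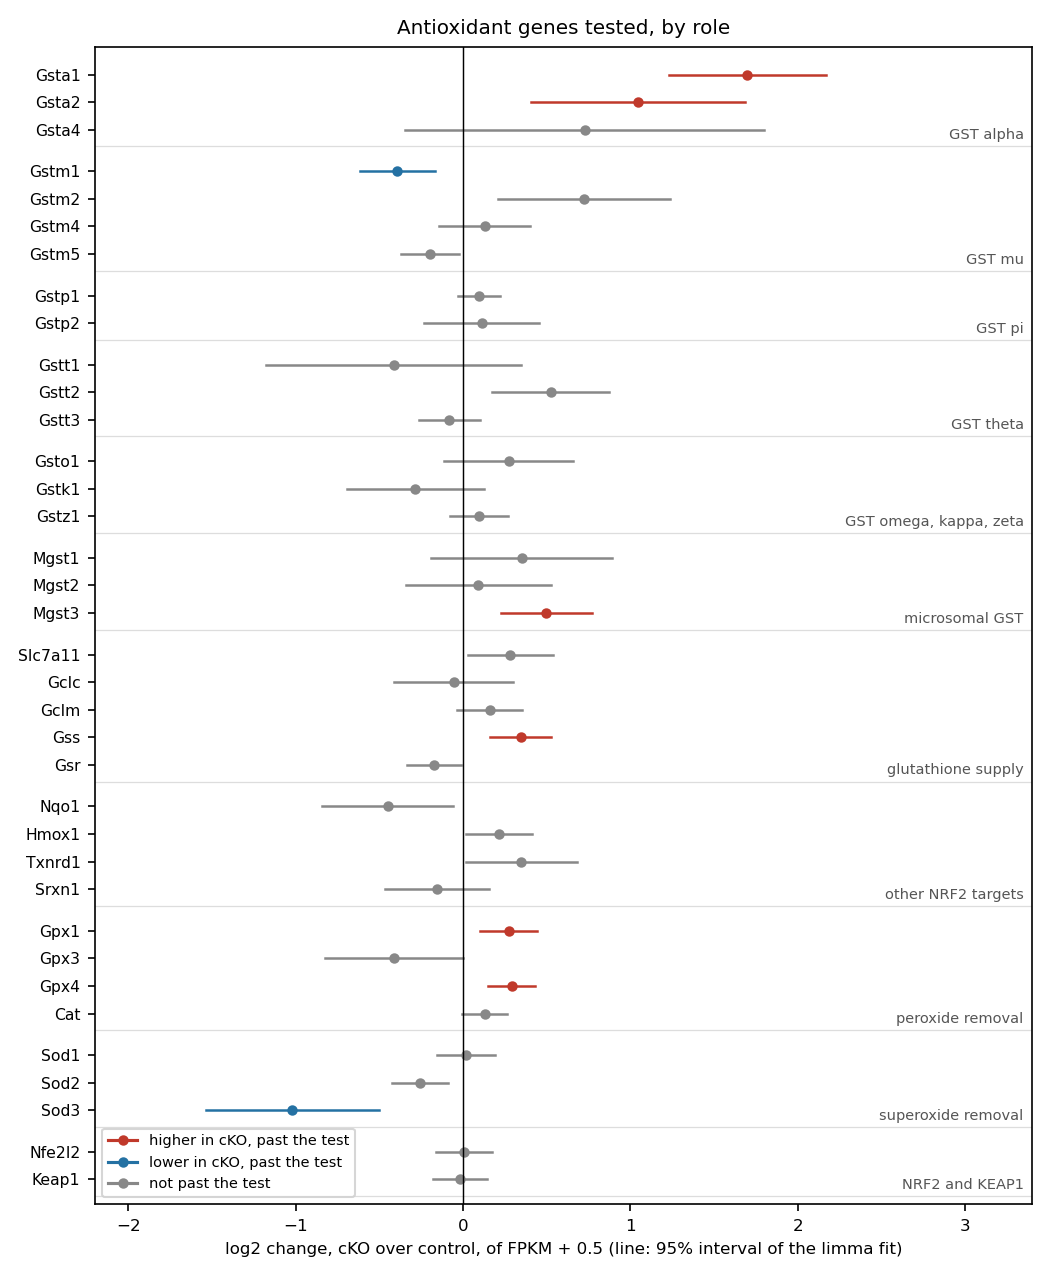
Log2 change of each of the 36 tested genes, cKO over control, on the horizontal axis, with genes grouped by role on the vertical axis; points are limma estimates and lines their 95% intervals. Gsta1 lies farthest to the right at 1.70 and Sod3 farthest to the left at -1.02, and 18 of the 36 intervals, which are not adjusted for the number of genes tested, lie clear of 0; 29.6% of all genes tested had an unadjusted p under 0.05.

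Gsta1, an alpha-class transferase of the cytosol that also reduces lipid peroxides, changed most. Gsta1 (ENSMUSG00000074183, chromosome 9, 78230656 to 78242684, plus strand of GRCm38, the assembly also called mm10) was at 30.2, 47.4 and 27.2 FPKM in cKO 1 to 3, against 9.79, 8.61 and 12.2 FPKM in control 1 to 3. Every cKO library was above every control library, and cKO 2 was the highest. The means were 34.9 ± 10.9 FPKM in cKO and 10.2 ± 1.84 FPKM in control (SD, n = 3 each), a fold of 3.42. The log2 change was 1.70 (SE 0.20, limma adjusted p = 0.00247), and over the 16 alternatives the adjusted p lay between 0.000991 and 0.0336. Among the transferases Gsta1 ranked number 2 by mean level in cKO and number 8 in control. The part of cell type differences in the rise of Gsta1 was not tested.

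Nearly all of the Gsta1 signal came from a protein-coding transcript of 7 exons, ENSMUST00000098537, with 98.8% of the gene in cKO and 98.5% in control. The authors' deposited table gives this transcript a fold of 3.44 with a q-value of 8.03e-10 and marks it significant. The authors' deposited table marks 2.19% of all 85882 transcripts as significant, and 2 of the 149 antioxidant transcripts. That mark also needs a change of 2-fold or more. Without the mark, though with a q-value under 0.05, were the Sod3 transcript (q-value 0.00561, fold 0.505) and the Gpx4 transcript ENSMUST00000105372 (q-value 0.00162, fold 1.22). Limma on single transcripts, which called 0.609% of 27761, called 0 of the 66 antioxidant ones tested (11 had an unadjusted p under 0.05, as did 14.5% of all transcripts tested) and gave ENSMUST00000098537 an adjusted p of 0.0564.

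Gsta2, the nearest relative of Gsta1 among the alpha genes measured, also rose, at a low level in both groups. Gsta2 (chromosome 9, 78331018 to 78347168, minus strand) was at 2.46, 4.20 and 1.66 FPKM in cKO 1 to 3, against 0.704, 1.25 and 1.12 FPKM in control 1 to 3. No cKO library was as low as any control library, and cKO 2 was again highest. Its log2 change was 1.04 (SE 0.28, limma adjusted p = 0.0466), and it passed in 4 of 15 alternatives. Leaving out any 1 library but cKO 3 ended the call (limma adjusted p 0.0793 to 0.1405). The main transcripts of Gsta1 and Gsta2 are 97.2% identical, and 44.6% of the stretches of 50 bases in the Gsta1 transcript also occur in that of Gsta2, so the division of fragments between them is uncertain. Their sum avoids that division. It was 32.7, 51.6 and 28.9 FPKM in cKO 1 to 3 and 10.5, 9.86 and 13.3 FPKM in control 1 to 3, a fold of 3.36.

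Gsta4, the alpha-class enzyme that clears the lipid aldehyde 4-hydroxynonenal, did not pass. It was at 23.5, 19.9 and 13.5 FPKM in cKO 1 to 3, against 5.45, 9.35 and 25.4 FPKM in control 1 to 3. Control 3 was above every cKO library, and the other control libraries were below them. The log2 change was 0.73 (SE 0.47, limma adjusted p = 0.344, and 0.0366 without control 3). Gsta4 shares no stretch of 50 bases with Gsta1 in their main transcripts.

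**Figure D2:**
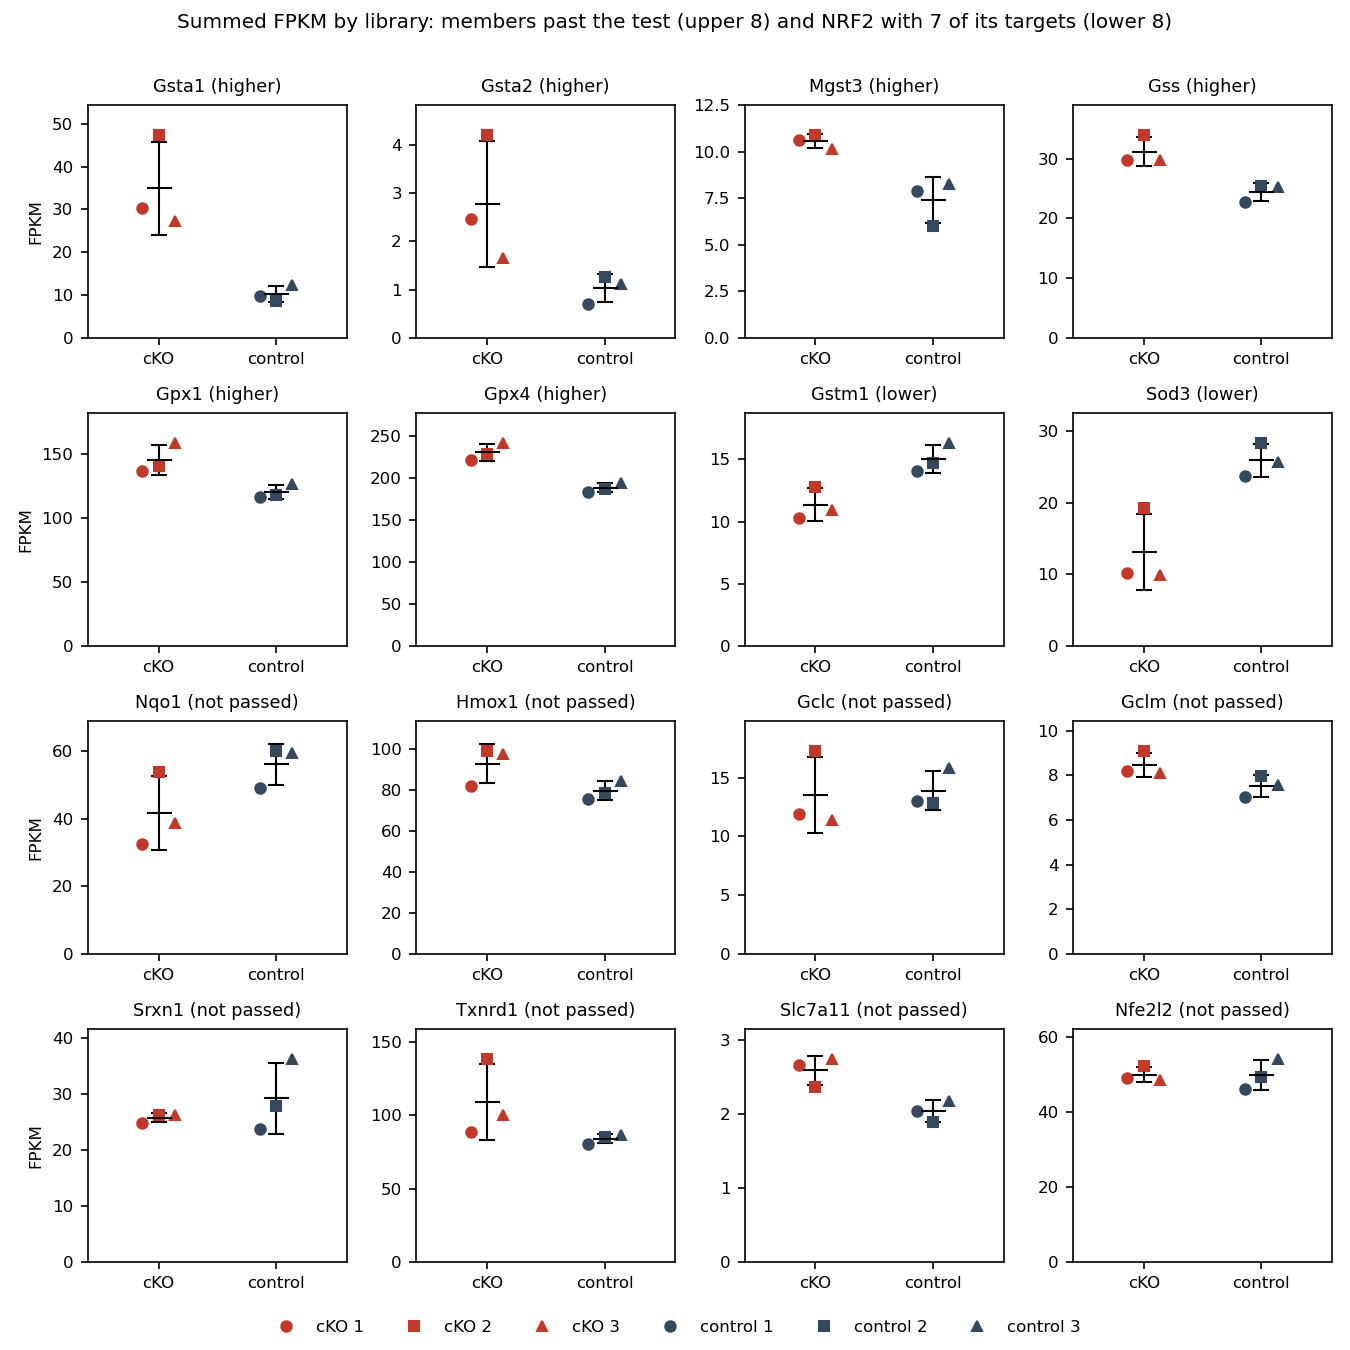
Summed FPKM in each library (vertical axes, from 0) for the 8 genes past the test and for Nfe2l2 with 7 NRF2 targets, cKO left of control; symbols are libraries 1 to 3, bars the mean and SD of 3 libraries. The 8 genes past the test have separate groups, as do Gclm, Txnrd1 and Slc7a11, while Nfe2l2, Nqo1, Hmox1, Gclc and Srxn1 overlap.

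The mu class, which conjugates epoxides among other substrates, held a gene that fell. Gstm1 (chromosome 3, 108012255 to 108017973, minus strand) was at 10.3, 12.8 and 11.0 FPKM in cKO 1 to 3, against 14.05, 14.7 and 16.3 FPKM in control 1 to 3. All cKO libraries were below all control libraries, cKO 2 being nearest to them. The log2 change was -0.39 (SE 0.098, limma adjusted p = 0.0374), which passed in 7 of 16 alternatives and, of the 6 libraries, only when cKO 2 was left out (0.0185, otherwise 0.0738 to 0.111).

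Its neighbour Gstm2 had the opposite sign and did not pass. Gstm2 was at 7.58, 4.42 and 7.62 FPKM in cKO 1 to 3, against 2.99, 3.397 and 4.79 FPKM in control 1 to 3. The groups overlapped through cKO 2 and control 3 (log2 change 0.72, SE 0.22, limma adjusted p = 0.0721, and 0.0159 without cKO 2). The main transcripts of Gstm1 and Gstm2 are 86.1% identical and share 0.887% of stretches of 50 bases. Gstm5 was at 24.9, 21.8 and 24.1 FPKM in cKO 1 to 3, against 27.5, 28.5 and 25.3 FPKM in control 1 to 3, and did not pass although the groups were separate (log2 change -0.20, SE 0.076, limma adjusted p = 0.127).

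Gstp1, the pi-class transferase, was the most abundant transferase in every library. It was at 134, 140.0 and 137 FPKM in cKO 1 to 3, against 126, 127 and 133 FPKM in control 1 to 3. All cKO libraries were slightly above all control libraries, and the log2 change of 0.09 did not pass (SE 0.056, limma adjusted p = 0.305). Gstp1 and Gstp2 share 62.3% of the stretches of 50 bases of the Gstp1 transcript, so they were also summed. The sum was 149, 160.4 and 152 FPKM in cKO 1 to 3 and 139, 142 and 150.4 FPKM in control 1 to 3, a fold of 1.07.

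Mgst3, a membrane-bound transferase with peroxidase activity, rose. It (chromosome 1, 167371966 to 167393841, minus strand) was at 10.6, 10.9 and 10.1 FPKM in cKO 1 to 3, against 7.91, 5.99 and 8.28 FPKM in control 1 to 3. The cKO libraries lay close together above all control libraries (log2 change 0.50, SE 0.12, limma adjusted p = 0.0320). The call held in 8 of 16 alternatives and ended without any 1 library but control 3 (limma adjusted p 0.0640 to 0.0762).

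Gsto1, the omega-class enzyme that also reduces dehydroascorbate, was at 26.4, 37.6 and 25.3 FPKM in cKO 1 to 3, against 23.2, 20.8 and 29.2 FPKM in control 1 to 3. The groups overlapped, with cKO 2 highest (log2 change 0.27, SE 0.17, limma adjusted p = 0.325). Gstt2, of the theta class, was at 3.90, 3.56 and 3.25 FPKM in cKO 1 to 3, against 1.88, 2.97 and 2.24 FPKM in control 1 to 3. These groups were separate but the change did not pass (log2 change 0.52, SE 0.15, limma adjusted p = 0.0598, and 0.0442 without control 2). The other 8 tested transferases (Gstm4, Gstp2, Gstt1, Gstt3, Gstk1, Gstz1, Mgst1 and Mgst2) did not pass, had overlapping groups, and had log2 changes between -0.42 and 0.35. Their mean levels were 2.79 to 16.8 FPKM in cKO and 3.49 to 15.7 FPKM in control.

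Over all 21 measured transferases the summed level was 333, 366 and 323.0 FPKM in cKO 1 to 3 and 272, 282 and 322.7 FPKM in control 1 to 3. The lowest cKO library and the highest control library were nearly level. Gsta1 made up 9.09, 12.9 and 8.43% of that sum in cKO 1 to 3 and 3.60, 3.05 and 3.79% in control 1 to 3. Gstp1 made up 40.4, 38.2 and 42.5% in cKO 1 to 3 and 46.1, 45.05 and 41.2% in control 1 to 3. Without Gsta1 the sum was 303, 319 and 296 FPKM in cKO 1 to 3 and 262, 273 and 310.4 FPKM in control 1 to 3, with overlapping groups. These sums are a description with no test.

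**Figure D3:**
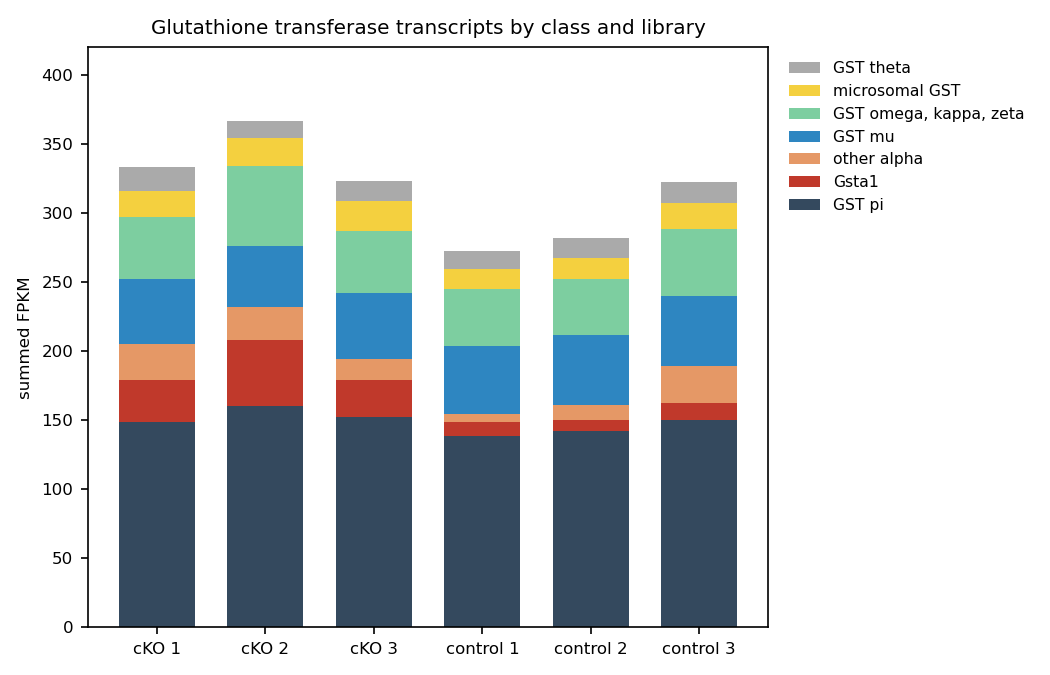
Stacked bars of summed FPKM (vertical axis, from 0) of the transferase classes in each library, with Gsta1 drawn apart from the other alpha-class genes. The Gsta1 band spans 27.2 to 47.4 FPKM in the cKO bars and 8.61 to 12.2 FPKM in the control bars, and the pi class is the widest band in all 6.

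Among the 5 genes that supply glutathione, the final enzyme of its synthesis rose and the others did not pass. Gss, glutathione synthetase (chromosome 2, 155563181 to 155592810, minus strand), was at 29.8, 34.0 and 29.8 FPKM in cKO 1 to 3, against 22.7, 25.4 and 25.3 FPKM in control 1 to 3. All cKO libraries were above all control libraries, a fold of 1.27 (log2 change 0.34, SE 0.079, limma adjusted p = 0.0284). It passed in 8 of 16 alternatives, and not without cKO 2 or any 1 control library (limma adjusted p 0.0552 to 0.104). Exons of Acss2 and of the antisense genes Gssos1 and Gssos2, on the opposite strand, cover 6.68, 5.44 and 6.51% of its exon bases, and whether the authors' counting used strand is not stated. The main Gss transcript, ENSMUST00000079691, held 81.6% of the gene in cKO and 91.5% in control. It was at 26.9, 21.8 and 27.6 FPKM in cKO 1 to 3, against 21.7, 21.5 and 23.9 FPKM in control 1 to 3. Its groups overlapped (limma on single transcripts, adjusted p = 0.524). ENSMUST00000130881, also coding, was at 1.45, 10.8 and 0 FPKM in cKO 1 to 3. In control 1 to 3 it was at 0, 2.02 and 0 FPKM. Both are named after their values were seen.

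Gclc and Gclm encode the catalytic and modifier subunits of glutamate-cysteine ligase, the rate-limiting enzyme of glutathione synthesis. Gclc was at 11.9, 17.2 and 11.4 FPKM in cKO 1 to 3, against 13.0, 12.9 and 15.8 FPKM in control 1 to 3 (log2 change -0.06, SE 0.16, limma adjusted p = 0.845). cKO 2 was the highest of all 6 libraries and the other cKO libraries were the lowest. Gclm was at 8.19, 9.08 and 8.11 FPKM in cKO 1 to 3, against 7.01, 7.97 and 7.58 FPKM in control 1 to 3, and its separate groups did not pass (log2 change 0.16, SE 0.084, limma adjusted p = 0.252).

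Slc7a11, the transporter that brings in cystine, was at 2.66, 2.37 and 2.74 FPKM in cKO 1 to 3, against 2.05, 1.89 and 2.18 FPKM in control 1 to 3. The cKO libraries were all higher, but the log2 change of 0.28 did not pass (SE 0.11, limma adjusted p = 0.136). Gsr, which returns oxidised glutathione to its reduced form, was at 14.7, 15.5 and 14.9 FPKM in cKO 1 to 3, against 15.9, 17.97 and 17.2 FPKM in control 1 to 3. The cKO libraries were all lower and the log2 change of -0.17 did not pass (SE 0.070, limma adjusted p = 0.143).

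NRF2 and its inhibitor did not pass at the RNA level. Nfe2l2 was at 49.0, 52.2 and 48.6 FPKM in cKO 1 to 3, against 46.2, 49.3 and 54.0 FPKM in control 1 to 3. The groups overlapped, and the log2 change of 0.01 had a 95% interval of -0.16 to 0.17 (limma adjusted p = 0.971). Keap1 was at 13.9, 13.1 and 12.4 FPKM in cKO 1 to 3, against 13.4, 12.9 and 13.6 FPKM in control 1 to 3. Its log2 change was -0.02 with a 95% interval of -0.18 to 0.14 (limma adjusted p = 0.886).

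The core of the antioxidant response element, TGACNNNGC, was searched on both strands of RefSeq promoters (GRCm38.p6) that run over 300 bases, 250 before and 50 after the gene start. It was found in 12.4% of 32851 promoters and in at least 1 promoter of 14.0% of 27025 symbols. Of the 40 listed genes 34 were in that table, and 9 of these (26.5%) held a match. The 7 matches in genes that were tested are shown because they mark which members carry the motif near the start. The capitals mark the core with 10 bases on either side, each read 5′ to 3′ on the strand of the match.
Gclm (chr3:122245413-122245441, minus strand): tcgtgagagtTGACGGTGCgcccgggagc
Txnrd1 (chr10:82859104-82859132, minus strand): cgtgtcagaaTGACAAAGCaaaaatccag
Srxn1 (chr2:152105542-152105570, minus strand): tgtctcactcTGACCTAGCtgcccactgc
Nfe2l2 (chr2:75704885-75704913, minus strand): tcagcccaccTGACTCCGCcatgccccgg
Gstm5 (chr3:107895802-107895830, plus strand): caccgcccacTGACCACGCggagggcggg
Mgst1 (chr6:138140461-138140489, minus strand): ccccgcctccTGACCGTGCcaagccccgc
Sod1 (chr16:90220696-90220724, minus strand): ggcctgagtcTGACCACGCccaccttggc

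None of these 7 genes passed the test, which 12.2% of all genes tested passed. Of the 8 genes that passed, Gsta1, Gsta2, Mgst3, Gss, Gpx1, Gpx4 and Gstm1 were in the promoter table without a match in this window, and Sod3 was not in it. A match is a run of letters and does not show that NRF2 binds there, and elements outside the window were not searched.

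Of 7 textbook NRF2 targets (Nqo1, Hmox1, Gclc, Gclm, Srxn1, Txnrd1 and Slc7a11) 0 passed limma and the median log2 change was 0.16. An unadjusted p under 0.05 was found for 4 of the 7, and for 29.6% of all genes tested. Nqo1, a quinone reductase widely used as a readout of NRF2, was at 32.5, 54.0 and 38.7 FPKM in cKO 1 to 3, against 49.1, 60.0 and 59.4 FPKM in control 1 to 3. cKO 1 and 3 were below every control library, and cKO 2 was above control 1. The log2 change of -0.45 did not pass (SE 0.17, limma adjusted p = 0.123), and it passed without cKO 2 (0.0142).

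Hmox1, heme oxygenase 1, was at 82.0, 99.1 and 97.7 FPKM in cKO 1 to 3, against 75.7, 78.9 and 84.8 FPKM in control 1 to 3. The groups overlapped through cKO 1 and control 3 (log2 change 0.22, SE 0.086, limma adjusted p = 0.141). Txnrd1, the cytosolic thioredoxin reductase, was at 88.4, 138 and 100.2 FPKM in cKO 1 to 3, against 80.5, 85.2 and 86.4 FPKM in control 1 to 3. The groups were separate, with cKO 2 far above the rest (log2 change 0.35, SE 0.14, limma adjusted p = 0.153).

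Srxn1, sulfiredoxin, which repairs over-oxidised peroxiredoxins, was at 24.9, 26.2 and 26.2 FPKM in cKO 1 to 3, against 23.6, 27.7 and 36.1 FPKM in control 1 to 3. Control 3 stood above the other libraries, and the log2 change of -0.16 did not pass (SE 0.14, limma adjusted p = 0.488). The second antioxidant transcript that the authors' deposited table marks significant is a non-coding one of Srxn1, ENSMUST00000137751, with a fold of 0.00935 and a q-value of 0.0239. It is named after its values were seen, and it stood at 0.00195, 0.0487 and 0.0181 FPKM in cKO 1 to 3 and at 0.0842, 0.00355 and 7.27 FPKM in control 1 to 3. Its mean in control thus came almost wholly from control 3. The main coding transcript of Srxn1, ENSMUST00000041500, was at 24.8, 26.1 and 26.2 FPKM in cKO 1 to 3. In control 1 to 3 it was at 23.5, 27.7 and 28.9 FPKM. Its log2 change was -0.05 (limma on single transcripts, adjusted p = 0.852).

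Among the enzymes that remove peroxides, both of the most abundant glutathione peroxidases in the set, Gpx4 and Gpx1, rose modestly. Gpx4, which reduces lipid peroxides in membranes and guards against ferroptosis (chromosome 10, 80047166 to 80056439, plus strand), was the most abundant gene of the set. It was at 221, 229 and 241 FPKM in cKO 1 to 3, against 184, 187 and 195 FPKM in control 1 to 3. The groups were separate with a fold of 1.22 (log2 change 0.29, SE 0.061, limma adjusted p = 0.0220). The call held in 12 of 16 alternatives, and not without control 1 or 2 (limma adjusted p = 0.0948 and 0.0976).

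Gpx1, the cytosolic and mitochondrial glutathione peroxidase (chromosome 9, 108338903 to 108340343, plus strand), was at 136, 140.3 and 158 FPKM in cKO 1 to 3, against 116, 117 and 126 FPKM in control 1 to 3. All cKO libraries were above all control libraries, with a fold of 1.21 (log2 change 0.27, SE 0.074, limma adjusted p = 0.0483). The call held in 4 of 16 alternatives and ended without any 1 of the 6 libraries (limma adjusted p 0.0605 to 0.162).

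Gpx3, the secreted glutathione peroxidase, was at 12.9, 8.97 and 15.9 FPKM in cKO 1 to 3, against 16.5, 18.1 and 15.1 FPKM in control 1 to 3. The groups overlapped through cKO 3 and control 3, and cKO 2 was lowest (log2 change -0.41, SE 0.18, limma adjusted p = 0.169). Cat, catalase of the peroxisome, was at 30.0, 30.6 and 31.6 FPKM in cKO 1 to 3, against 27.2, 28.1 and 28.9 FPKM in control 1 to 3. The cKO libraries were all higher, by a small margin, and the log2 change of 0.13 did not pass (SE 0.059, limma adjusted p = 0.187).

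The superoxide dismutases are told apart by where they work, and only the extracellular enzyme passed. Sod3 (chromosome 5, 52363791 to 52371418, plus strand) was at 10.1, 19.2 and 9.89 FPKM in cKO 1 to 3, against 23.7, 28.3 and 25.7 FPKM in control 1 to 3. All cKO libraries were below all control libraries, and cKO 2 lay between the other cKO libraries and the control libraries. The means were 13.1 ± 5.33 FPKM in cKO and 25.9 ± 2.32 FPKM in control (SD, n = 3 each), a fold of 0.505. The log2 change was -1.02 (SE 0.23, limma adjusted p = 0.0253), and it passed in 9 of 16 alternatives. The adjusted p was 0.000254 without cKO 2 and 0.0635 to 0.0979 without any other library. In the same comparison 15 of 16 chondrocyte markers and 4 of 10 fibroblast markers fell, and their part in the fall of Sod3 was not tested.

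Sod2, the mitochondrial dismutase, was at 8.69, 9.38 and 9.30 FPKM in cKO 1 to 3, against 11.0, 11.5 and 10.6 FPKM in control 1 to 3. The groups were separate, but the log2 change of -0.26 did not pass (SE 0.072, limma adjusted p = 0.0540), and it passed in 3 of 16 alternatives. Sod1, the cytosolic dismutase, was at 115, 116 and 136 FPKM in cKO 1 to 3, against 119, 121 and 122 FPKM in control 1 to 3. The groups overlapped and the log2 change was 0.02 (SE 0.075, limma adjusted p = 0.911).

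Neither the cKO libraries nor the control libraries stood at the same level within this gene set. Of the 7 NRF2 targets 6 were highest in cKO 2 among the cKO libraries, and of the 36 tested genes 52.8% were, against 35.9% of all tested genes. For the NRF2 targets the margin over cKO 3 was small for Srxn1 (26.180 against 26.176 FPKM) and Hmox1 (99.1 against 97.7 FPKM). It was wider for Nqo1, Gclc, Gclm and Txnrd1. Among the control libraries 69.4% of the 36 were lowest in control 1, against 35.5% of all tested genes, and 63.9% were highest in control 3, against 44.1%. Of the 7 NRF2 targets 5 were lowest in control 1 and 5 were highest in control 3. These shares are descriptions, since genes of 1 library are not independent.

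**Figure D4:**
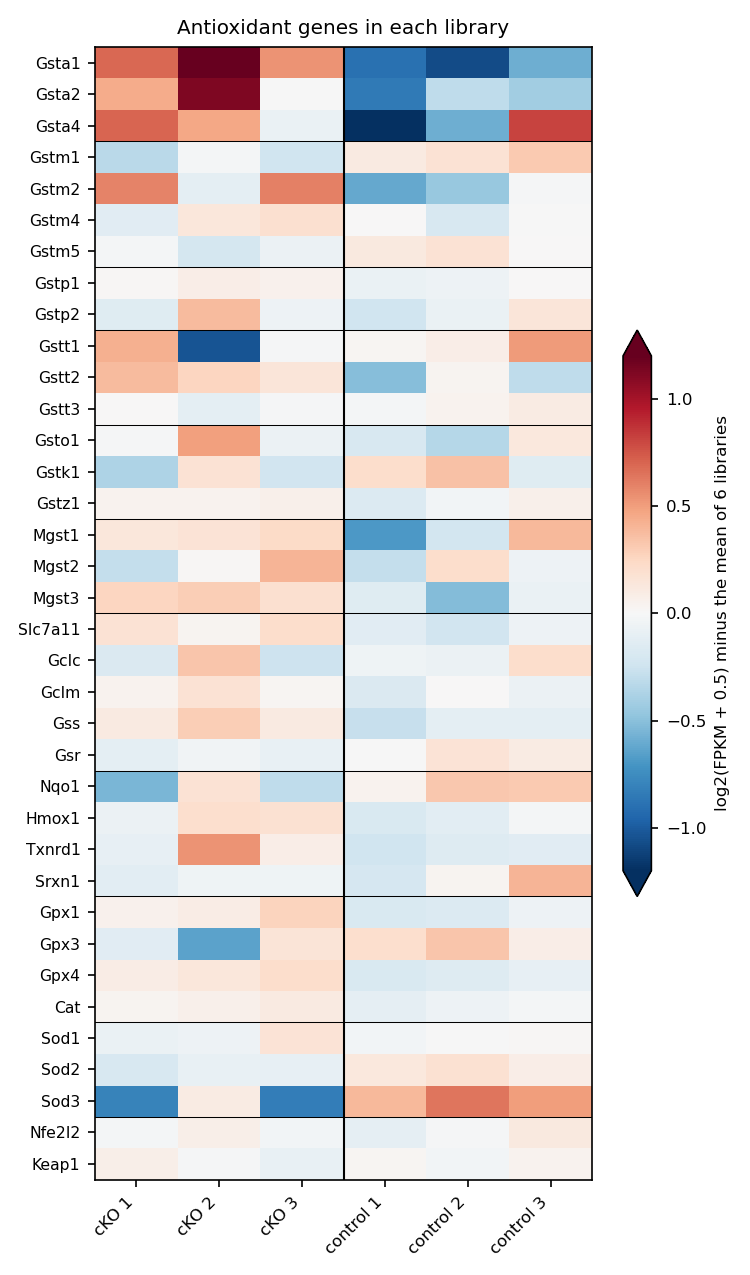
Log2(FPKM + 0.5) of each of the 36 tested genes (rows, divided by role) in each library (columns, cKO left of control), as the difference from the mean of the 6 libraries; red is above and blue below it. Gsta1 is red in all cKO columns and blue in all control columns, Sod3 is palest in cKO 2, and Gsta4 splits the control libraries.

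Genes of neighbouring pathways came from lists chosen with earlier results of these data known. They are given by their counts and medians, beside 12.2% passed and a median of 0.05 for all genes tested. These counts describe the lists and do not test them. Of 22 thioredoxin, peroxiredoxin and glutaredoxin genes 3 rose, 0 fell and 19 did not pass, with a median log2 change of 0.15. Prdx2, a cytosolic peroxiredoxin, averaged 130 ± 5.40 FPKM in cKO and 105 ± 5.32 FPKM in control (SD, n = 3 each; limma adjusted p = 0.0203). Prdx3, the mitochondrial one, averaged 46.4 ± 0.564 FPKM in cKO and 38.7 ± 1.37 FPKM in control (limma adjusted p = 0.0245). Glrx3, a glutaredoxin that carries iron-sulfur clusters, averaged 78.0 ± 1.86 FPKM in cKO and 64.4 ± 3.93 FPKM in control (limma adjusted p = 0.0292).

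Of 28 tested further NRF2 targets 1 rose, 2 fell and 25 did not pass, with a median of 0.15. Fth1, the heavy chain of the iron store ferritin, was at 530, 611 and 601 FPKM in cKO 1 to 3, against 883, 1025 and 964 FPKM in control 1 to 3. The groups were far apart (log2 change -0.72, SE 0.087, limma adjusted p = 0.00260), and the fall passed in all 16 alternatives. Slc6a9, a glycine transporter, averaged 4.42 ± 0.268 FPKM in cKO and 6.72 ± 0.292 FPKM in control (SD, n = 3 each; limma adjusted p = 0.00712), and also passed in all 16. Ephx1, the microsomal epoxide hydrolase, rose to 85.8 ± 10.9 FPKM in cKO, against 62.9 ± 7.17 FPKM in control (limma adjusted p = 0.0361). Of 15 tested NRF2 partners and regulators, among them the small MAF genes, Bach1 and Cul3, 0 passed limma and 3 had an unadjusted p under 0.05, against 29.6% of all genes tested (median 0.07).

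Among 13 tested genes listed under glutathione breakdown, cystine uptake and glutathione use 2 rose, 1 fell and 10 did not pass, with a median of 0.07. The list is wider than its name, as the roles given here for Slc1a4 and Ggh show. Slc1a4, a neutral amino acid transporter, rose to 16.4 ± 0.448 FPKM in cKO, against 13.7 ± 0.139 FPKM in control (limma adjusted p = 0.0348). Glo1, the glyoxalase that uses glutathione to clear methylglyoxal, rose to 12.1 ± 0.768 FPKM in cKO, against 9.38 ± 0.841 FPKM in control (limma adjusted p = 0.0376). Ggh, a hydrolase of folate polyglutamates, fell to 5.63 ± 0.660 FPKM in cKO, against 7.46 ± 0.480 FPKM in control (limma adjusted p = 0.0454).

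Of 6 tested superoxide sources and copper chaperones 2 rose and 4 did not pass, with a median of 0.26. Cyba, the membrane subunit p22phox that NADPH oxidases need, was at 35.4, 40.5 and 38.2 FPKM in cKO 1 to 3, against 29.2, 29.3 and 27.6 FPKM in control 1 to 3. Its groups were separate and it passed in all 16 alternatives (log2 change 0.40, SE 0.069, limma adjusted p = 0.0106). Nox4, an oxidase that releases hydrogen peroxide, rose to 2.54 ± 0.254 FPKM in cKO, against 1.71 ± 0.187 FPKM in control (limma adjusted p = 0.0470), and over protein-coding transcripts alone it did not pass (0.462).

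Of 9 tested genes of iron and heme handling 1 rose, 2 fell (Fth1 being 1 of them) and 6 did not pass, with a median of 0.16. Alas1, the entry enzyme of heme synthesis, rose to 13.2 ± 1.65 FPKM in cKO, against 9.41 ± 0.212 FPKM in control (limma adjusted p = 0.0211). Tfrc, the transferrin receptor that takes up iron, fell to 27.8 ± 2.37 FPKM in cKO, against 33.7 ± 0.434 FPKM in control (limma adjusted p = 0.0469). Of 3 tested peroxidases outside the set 0 rose, 1 fell and 2 did not pass. The one that fell, Gpx2, was listed at 0 in all 3 cKO libraries, against 1.98, 1.71 and 4.44 FPKM in control 1 to 3 (limma adjusted p = 0.00181). Over protein-coding transcripts alone Gpx2 lay under the filter, and most of its signal in control came from a transcript annotated as non-coding. Of 3 tested transferases outside the set 0 passed limma and 0 had an unadjusted p under 0.05.

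Leaving out a library ended some of these calls. Slc1a4, Glo1 and Nox4 did not pass without any 1 of the 6 libraries (limma adjusted p 0.0656 to 0.118, 0.0546 to 0.130 and 0.0774 to 0.127). Glrx3 passed only without control 3, Ggh only without cKO 3 and Tfrc only without cKO 2 (otherwise 0.0558 to 0.1196, 0.0857 to 0.157 and 0.0752 to 0.147). Prdx2 did not pass without control 1 or 2 (0.0876 and 0.0917), Prdx3 without those or cKO 1 (0.0678 to 0.1005), Ephx1 without those, cKO 2 or cKO 3 (0.0637 to 0.122), and Alas1 without cKO 3 or any control (0.0525 to 0.0768).

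**Figure D5:**
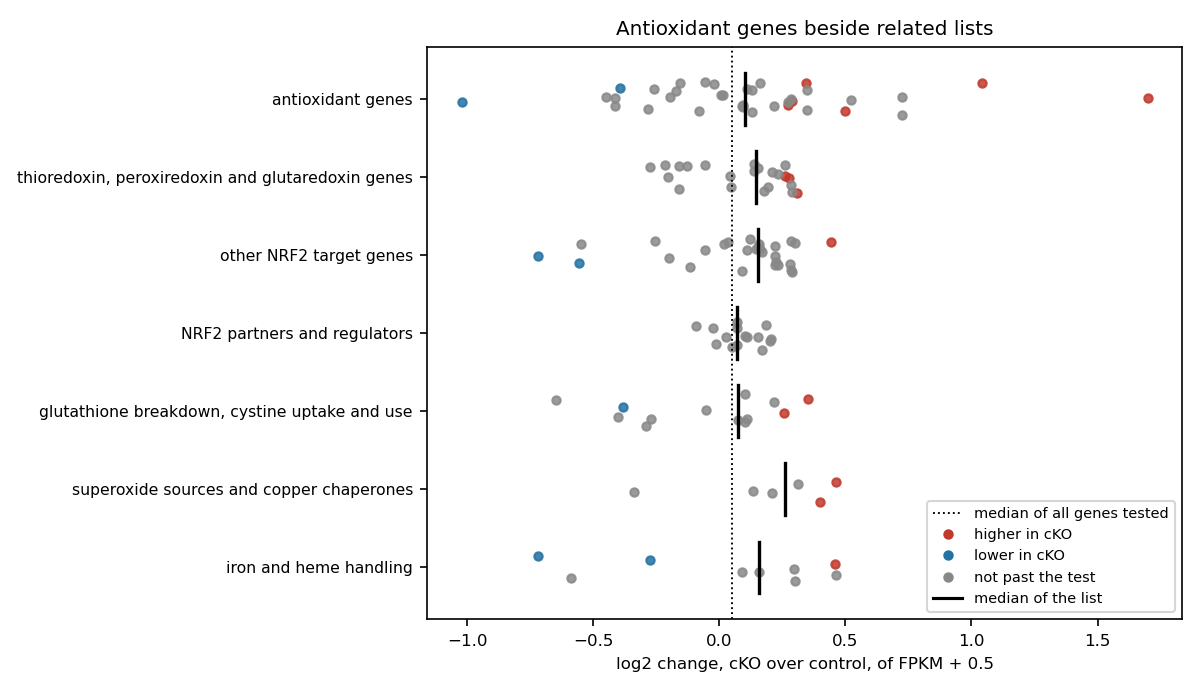
Log2 change, cKO over control, of each tested gene (points) of the antioxidant set and of 6 related lists (rows); black bars are list medians and the dotted line is the median of all genes tested. The list medians lie between 0.07 and 0.26, and the share of a related list's genes past the test lies between 0.0% and 33.3%, against 12.2% of all genes tested.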

How the data were processed

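RNA was extracted with Trizol and libraries were made from 1.5 µg of total RNA with dUTP, per the labels' protocols. FPKM per transcript and library were computed and deposited by the authors on mm10, per the submitters' processing notes. Neither the aligner nor the quantifier is given in the sources used here. The authors' deposited table also holds a fold (a ratio of mean FPKM), its log2 value, and a p-value and q-value from a test that the file headers do not name. A transcript is marked significant there when q is under 0.05 and it changed by 2-fold or more. Low values were searched for the step of 1 fragment, and 13.4 to 16.4% of them fell on a whole multiple (tolerance 0.02 steps). Whole reads therefore could not be recovered, depth is unknown and no count test was run.

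FPKM were summed per symbol. The 14080 genes that averaged 0.5 FPKM or more were tested on log2(FPKM + 0.5) with limma 3.58.1 (R 4.3.3), with a trend, 2-sided and without covariates. This scale understates changes of low genes. The labels give no batch. The gene set and the lists were chosen with earlier results of these data known. Named in full were the genes past the test, the 3 most abundant transferases and 17 fixed genes, plus up to 4 genes past the test per list; Gsta4, Gstm2 and Gstt2 were added after their values were seen. Gene coordinates and transcript sequences came from GENCODE M21. Python 3.11.15, pandas 2.3.3 and Matplotlib 3.10.9 handled tables and plots. The alternatives were other pseudocounts (0.1 and 1), filters (none, or 2 FPKM), scalings, a replicate block, protein-coding transcripts only, no trend, Xist above or below 5 FPKM as a covariate, and leaving out each library.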

Additional observations from a re-analysis of the deposited data

How the results depend on the processing

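Of the antioxidant genes 6 rose and 2 fell in the reported fit. The number that rose was 1 without a filter on low values, 3 with median-of-ratios scaling and 1 without a trend, and it ranged between 1 and 4 over the fits that left out 1 library each. The number that fell was 0 without a filter, 1 with the replicate block, 0 without a trend and 1 with Xist as a covariate, and it ranged between 0 and 3 over the fits that left out 1 library. These numbers count every antioxidant gene that passed in a fit, also genes that did not pass in the reported fit. Of all genes 1070 rose in the reported fit, against 342 without a filter, 652 with median-of-ratios scaling, 666 with quantile normalization, 638 with the replicate block and 572 without a trend (225 to 782 over the fits that left out 1 library). The count of genes that fell was 643, against 320 without a filter (312 to 542 over those fits). Without control 1, 322 genes rose and 356 fell, and without control 2, 225 rose and 312 fell. Without cKO 1, 646 rose, and without cKO 3, 656. The median log2 change of the set lay between 0.04 and 0.16 in all alternatives. Limma on single transcripts called 0 of the antioxidant transcripts at an adjusted p under 0.05. The authors' deposited table marks 2 by an unlike rule, a q-value under 0.05 with a change of 2-fold or more.

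The labels do not say whether same-numbered libraries were paired. The deviations of same-numbered libraries correlated at -0.016, -0.056 and -0.046, so no shared deviation was seen. These values cannot show how the samples were prepared. With the replicate block 5 antioxidant genes rose and 1 fell.

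No call changed sign. The sign of 8 genes that did not pass depended on the setting. Over the fits that left out 1 library the log2 change of Gstp2 ranged between -0.049 and 0.21, of Mgst2 between -0.092 and 0.26, of Gclc between -0.24 and 0.051, of Srxn1 between -0.29 and 0.0070, of Sod1 between -0.061 and 0.059, of Nfe2l2 between -0.047 and 0.064, and of Keap1 between -0.060 and 0.020. Gstp2 was at -0.36 over protein-coding transcripts. Sod1 was at -0.045 and Nfe2l2 at -0.055 with median-of-ratios scaling. With quantile normalization Gstp1 was at -0.0097, Sod1 at -0.087 and Nfe2l2 at -0.069. The cause of these differences was not tested. The number of libraries, 3 in each group, limits the precision of every value.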
